A study of Homo sapiens with 16 samples.

Results

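The genes described here are 38 targets of the hypoxia response and enzymes of glycolysis, measured by RNA sequencing in human mammary cells that stand at different places between an epithelial and a mesenchymal state. They were taken as a named list, which covers oxygen sensing, glucose uptake, the steps of glycolysis, the switches that steer its flux, lactate export and pH, mitochondrial turnover, secreted factors and other targets. The list was not drawn from measured values, but earlier results of these data were known when it was chosen. Each of the 38 symbols matched 1 row among the 60448 rows of the count tables, and all 38 passed the filter on low counts that left 18285 genes to test. Together they took 1.11% to 2.12% of the counts of a library.

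All cells were HMLER, a human mammary epithelial line to which immortalizing and transforming genes were added. They grew in 1 rich medium with insulin, EGF and hydrocortisone, and RNA came from cells taken from culture or after a sort. The 16 libraries form 8 groups of 2. Mesenchymal cells are sgEED-Mes (genotype EED-KO), sgKMT2D-Mes (KMT2D-KO) and the unedited C2-Mes, and the plastic epithelial cells set against them are sgEED-Epi, sgKMT2D-Epi and C2-Epi. The controls are sgControl, which carries a control guide and is labelled wild type, and the unedited C1, a stable epithelial state. All guide groups, sgControl included, were made in C1. EED is a core subunit of PRC2, which methylates histone H3 to repress genes, and KMT2D methylates histone H3 at enhancers of active genes. The labels name no oxygen level and do not state that a group's libraries are separate cultures. The p-values therefore reflect only how far these libraries spread, which may be technical. Nor do the labels say whether the states of 1 guide, or C1 and C2, are single clones, so state and clone cannot be told apart.

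Cells sense oxygen through prolyl hydroxylases (EGLN1 and EGLN3 among them) that mark the alpha subunits HIF1A and EPAS1 for destruction while oxygen is plentiful. When oxygen is low the subunits persist, pair with ARNT and bind short DNA motifs near genes for glucose transport, glycolysis, pH control, blood vessel growth and collagen hydroxylation. Many of these genes, above all those of glycolysis, are also driven by growth signals and oncogenes, and the hydroxylation that controls HIF1A acts on protein and is not seen in RNA.

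Library totals ran from 18872124 to 31950649 counts. Levels are TMM-scaled CPM (counts relative to library size), given as replicate 1 and then replicate 2 of a group. Changes are log2 ratios ± standard error from edgeR's quasi-likelihood test. The test gives no standard error, so an approximate one was taken as the size of the change over the square root of its F statistic. A gene was called where its p, after Benjamini-Hochberg adjustment over all 18285 genes, was under 0.05. The states matched their labels: the 8 epithelial markers summed to 45.0 to 500.1 CPM in mesenchymal libraries, against 4570.2 to 11849 CPM in epithelial ones, and all 8 mesenchymal markers rose in each of the 3 lineages. The 5 leukocyte markers summed to at most 1.05 CPM and the 3 erythroid markers to at most 0.132 CPM. The 5 endothelial markers summed to 19.8 and 32.1 CPM in C2-Mes and to at most 4.60 CPM elsewhere, and the 3 adipocyte markers reached 12.04 CPM in sgKMT2D-Mes. EED stood at 5.22 and 5.50 CPM in sgEED-Mes and 26.7 and 29.6 CPM in sgEED-Epi, against 26.6 and 21.6 CPM in sgControl. KMT2D stood at 86.6 and 76.8 CPM in sgKMT2D-Mes and 124 and 127 CPM in sgKMT2D-Epi, against 89.9 and 70.9 CPM in sgControl. A guide can disable a gene without lowering its RNA, so these levels do not check the guide labels, which are used here as given. The C2-Mes libraries differed most from each other: across tested genes their log2 levels correlated at 0.967, against 0.988 to 0.994 for the pairs of the other groups. Between replicates the 38 members differed, on the log2 scale, with an SD of 0.759 in C2-Mes, against 0.095 to 0.331 in the other groups. The tests share each gene's spread across all groups, so p-values that involve C2-Mes do not reflect its own wider spread. Mitochondrial genes took 12.5% of the counts of C2-Mes replicate 1 and 8.15% of replicate 2, and 7.51% and 11.6% in sgEED-Mes, against 7.01% to 10.6% in the other libraries, and the part of this share in the results was not tested.

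Between the mesenchymal and the epithelial state, 24 of the 38 members were called in C2, 23 in sgKMT2D and 13 in sgEED, and each lineage had members called in both directions. The members higher in C2-Mes included 7 glycolytic steps and all 3 genes of lactate export and pH, whereas the sgKMT2D calls were split almost evenly. In C2-Mes, 19 members were higher and 5 lower than in C2-Epi, against a background of 21% of all tested genes called higher and 18.6% lower. In sgEED-Mes, 10 members were higher and 3 lower than in sgEED-Epi, where 19.2% of all genes were higher and 17.3% lower. In sgKMT2D-Mes, 12 were higher and 11 lower than in sgKMT2D-Epi, where 26.8% of all genes were higher and 24.0% lower. In either direction 39.6% of all genes were called in C2, 36.5% in sgEED and 50.8% in sgKMT2D. The count of higher members in C2-Mes lay above its background share, and the sgEED-Mes and sgKMT2D-Mes counts in either direction lay near theirs. The median log2 change of the 38 members was 0.49 in C2, 0.27 in sgEED and -0.06 in sgKMT2D, while that of all tested genes lay between 0.01 and 0.02. In bulk RNA, fewer cells of a type and less RNA per cell cannot be told apart. Calls kept under every alternative processing and with each library left out in turn numbered 15 of 24 in C2, 10 of 13 in sgEED and 15 of 23 in sgKMT2D. With only the 4 libraries compared in the fit, the C2 calls on ADM, BNIP3, BNIP3L, EPAS1, GPI, PFKFB4, PFKP, PGK1 and VEGFA ended. With library totals in place of TMM, those on GPI, PFKP and PGK1 ended in C2, those on ANKRD37, BNIP3 and PDK1 in sgEED, and those on ANGPTL4 and KDM3A in sgKMT2D. Lower calls were then gained in sgEED, for a split of 7 higher and 5 lower. All genes shifted too: 35.9% of those called in sgEED were then higher, against 52.5% with TMM.

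**Figure D1:**
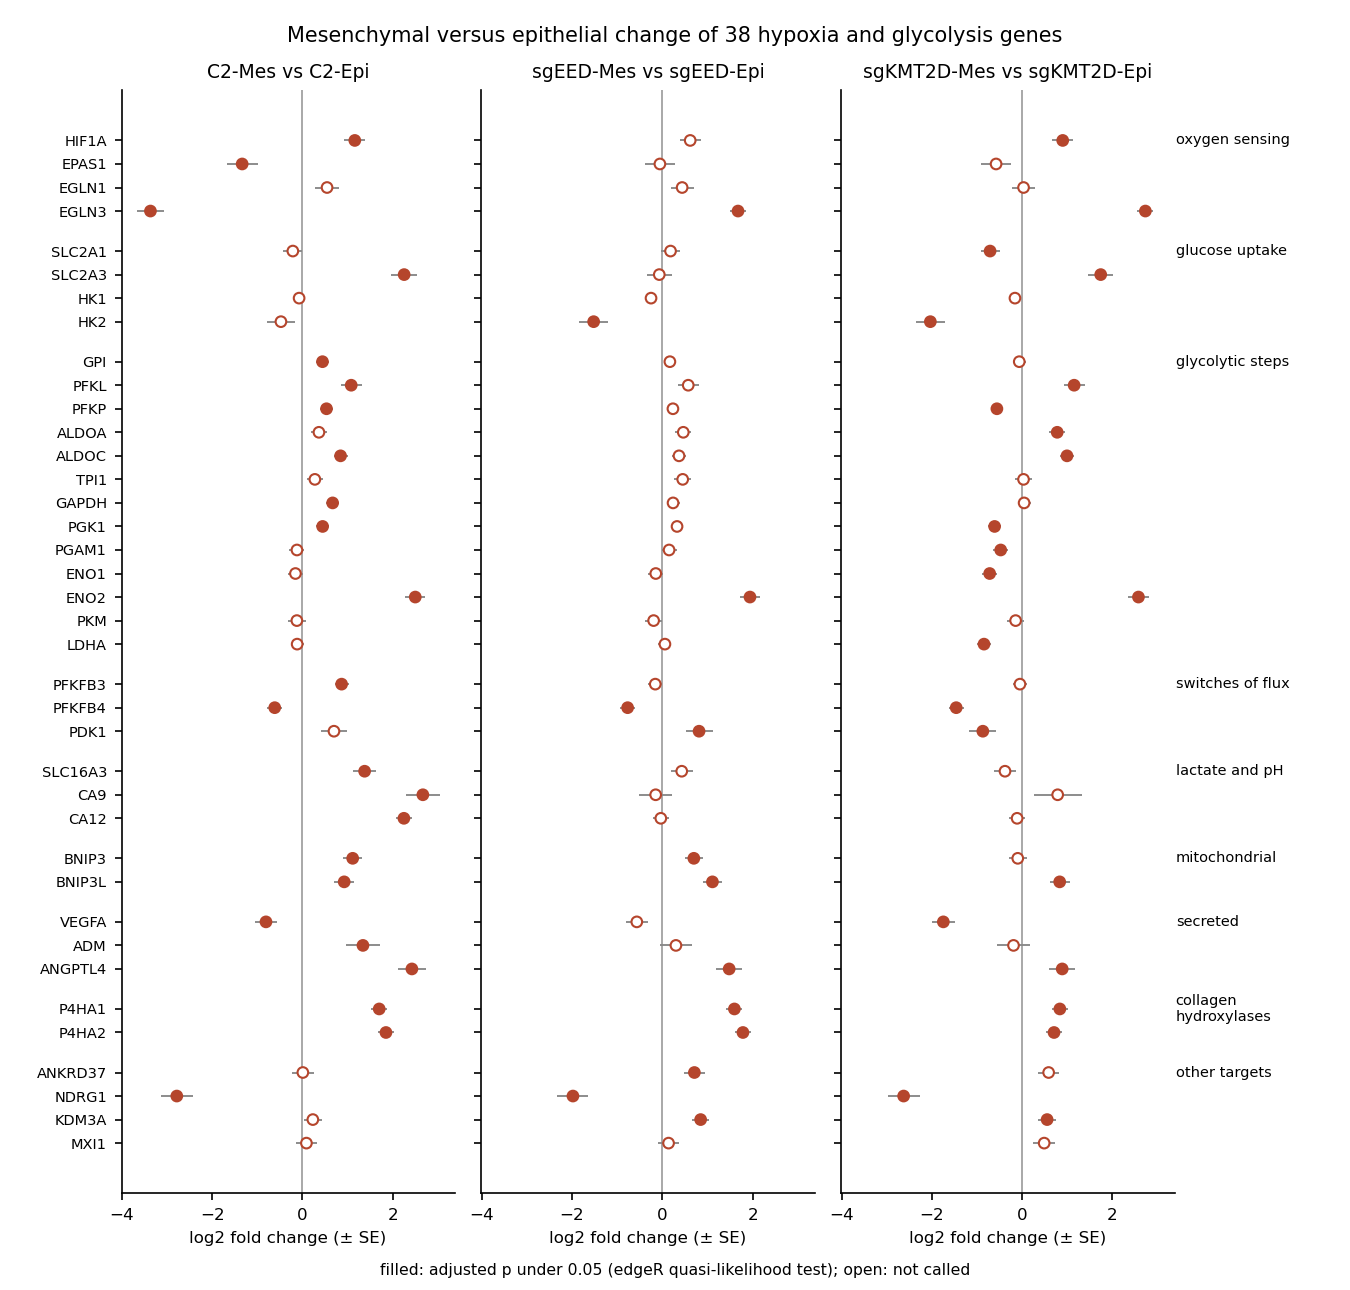
Log2 fold change (x axis, ± SE) of each of the 38 members (y axis, ordered by role) in C2-Mes against C2-Epi, sgEED-Mes against sgEED-Epi and sgKMT2D-Mes against sgKMT2D-Epi, 2 libraries a group. Filled points passed an adjusted p of 0.05. ENO2 and the collagen prolyl hydroxylases P4HA1 and P4HA2 lie right of 0 in all 3 panels and NDRG1 left of 0, while EGLN3 lies left of 0 in the C2 panel and right of 0 in the others.

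Of the 38 members, 5 were higher in the mesenchymal cells of all 3 lineages (13.2%, against 7.69% of all tested genes): ENO2, P4HA1, P4HA2, ANGPTL4 and BNIP3L. A further 2 were lower in all 3 (5.26%, against 7.03%): NDRG1 and PFKFB4. Calls of opposite direction were made for 4 members (10.5%, against 5.75%), namely EGLN3, PFKP, PGK1 and PDK1, and 5 members were called in no lineage (13.2%, against 30.8%), namely EGLN1, HK1, TPI1, PKM and MXI1. The log2 change had the same sign in all 3 lineages for 23 members (60.5%), against 53.4% of all genes.

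ENO2 encodes the gamma enolase of neurons and other cells with high glycolytic flux (ENSG00000111674, chr12:6913745-6923698, + strand, GRCh38). Its level was 87.5 and 53.7 CPM in C2-Mes libraries, against 13.0 and 11.9 CPM in C2-Epi libraries. ENO2 had 35.1 and 25.8 CPM in sgEED-Mes libraries, against 8.19 and 7.65 CPM in sgEED-Epi libraries. ENO2 had 19.2 and 20.5 CPM in sgKMT2D-Mes libraries, against 3.19 and 3.47 CPM in sgKMT2D-Epi libraries. Every mesenchymal library lay above every epithelial library of its lineage, and C2-Mes reached the highest level of the 8 groups. The log2 change was 2.50 ± 0.22 in C2 (adjusted p = 6e-07), 1.94 ± 0.22 in sgEED (adjusted p = 9.4e-06) and 2.58 ± 0.23 in sgKMT2D (adjusted p = 8e-07), and no test of the difference between lineages called it. Per length, in TPM, ENO2 remained the minor enolase: it made 4.77% ± 2.50 of the summed ENO1 and ENO2 level in C2-Mes, against 0.745% ± 0.0137 in C2-Epi (SD, n = 2 each). In sgEED cells its share was 1.71% ± 0.165 in the mesenchymal state, against 0.416% ± 0.0758 in the epithelial state (SD, n = 2 each).

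P4HA1 and P4HA2 are the catalytic subunits of collagen prolyl 4-hydroxylase, which stabilises the collagen helix and, like EGLN1, uses oxygen as a substrate. P4HA1 (ENSG00000122884, chr10:73007217-73096974, - strand) stood at 352 and 257 CPM in C2-Mes libraries, against 93.2 and 93.8 CPM in C2-Epi libraries. P4HA1 had 218 and 241 CPM in sgEED-Mes libraries, against 74.7 and 77.1 CPM in sgEED-Epi libraries. P4HA1 had 181 and 190.1 CPM in sgKMT2D-Mes libraries, against 107 and 101 CPM in sgKMT2D-Epi libraries. The groups did not overlap in any lineage, and the distance was smallest in sgKMT2D. Its log2 change was 1.70 ± 0.18 in C2 (adjusted p = 3.2e-06), 1.60 ± 0.18 in sgEED (adjusted p = 7.5e-06) and 0.83 ± 0.17 in sgKMT2D (adjusted p = 0.0012). P4HA2 (ENSG00000072682, chr5:132191838-132295315, - strand) had 199.8 and 290.3 CPM in C2-Mes libraries, against 68.5 and 67.5 CPM in C2-Epi libraries. P4HA2 had 327 and 269 CPM in sgEED-Mes libraries, against 78.3 and 94.4 CPM in sgEED-Epi libraries. Both mesenchymal groups lay well clear of their epithelial groups. P4HA2 had 154 and 157 CPM in sgKMT2D-Mes libraries, against 89.0 and 101 CPM in sgKMT2D-Epi libraries. The P4HA2 change was 1.85 ± 0.18, 1.79 ± 0.18 and 0.71 ± 0.17 in the order C2, sgEED and sgKMT2D (adjusted p = 1.4e-06, 2.5e-06 and 0.0037). The sgKMT2D call on P4HA2 ended without sgKMT2D-Epi replicate 1 (adjusted p = 0.057). P4HA2 changed less in sgKMT2D than in either other lineage: its change minus that of C2 was -1.15 ± 0.24 (adjusted p = 0.0036), and the sgEED change exceeded it by 1.08 ± 0.24 (adjusted p = 0.0064).

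ANGPTL4, a secreted inhibitor of lipoprotein lipase, is a target of both HIF and PPAR factors (ENSG00000167772, chr19:8363289-8374373, + strand). It stood at 36.2 and 75.3 CPM in C2-Mes libraries, against 11.1 and 9.76 CPM in C2-Epi libraries. ANGPTL4 had 64.8 and 38.6 CPM in sgEED-Mes libraries, against 18.0 and 19.0 CPM in sgEED-Epi libraries. ANGPTL4 had 31.5 and 28.1 CPM in sgKMT2D-Mes libraries, against 14.7 and 17.5 CPM in sgKMT2D-Epi libraries. Each mesenchymal library exceeded its epithelial pair, with wide spread inside C2-Mes and sgEED-Mes. The log2 changes were 2.43 ± 0.30 in C2 (adjusted p = 2.3e-05), 1.48 ± 0.29 in sgEED (adjusted p = 0.0013) and 0.89 ± 0.29 in sgKMT2D (adjusted p = 0.022). The C2 change was 1.76 without C2-Mes replicate 2, and the sgKMT2D call ended when any of its 4 libraries was left out (highest adjusted p = 0.16). C1, at 60.8 and 53.8 CPM, lay within the range of the mesenchymal libraries.

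BNIP3L and BNIP3 are mitochondrial outer membrane proteins that recruit the autophagy machinery. BNIP3L (ENSG00000104765) had 213 and 119 CPM in C2-Mes libraries, against 82.9 and 91.8 CPM in C2-Epi libraries. BNIP3L had 125 and 141 CPM in sgEED-Mes libraries, against 69.2 and 54.4 CPM in sgEED-Epi libraries. BNIP3L had 159 and 167 CPM in sgKMT2D-Mes libraries, against 97.6 and 85.8 CPM in sgKMT2D-Epi libraries. All mesenchymal libraries were above the epithelial ones of their lineage. PNMA2, which overlaps BNIP3L, had 10.9% of its counts. The log2 change was 0.93 ± 0.22 in C2 (adjusted p = 0.0037), 1.11 ± 0.22 in sgEED (adjusted p = 0.0012) and 0.83 ± 0.22 in sgKMT2D (adjusted p = 0.0057). Only the sgEED call held with each library left out: the C2 change was 0.34 without C2-Mes replicate 1 (adjusted p = 0.11), and the C2 call also ended without C2-Epi replicate 1 (adjusted p = 0.074) and the sgKMT2D call without replicate 2 of either group (adjusted p = 0.099 and 0.064). BNIP3 rose with it in C2 (1.11 ± 0.21, adjusted p = 0.00064) and in sgEED (0.70 ± 0.20, adjusted p = 0.015). Without C2-Mes replicate 1 the BNIP3 change in C2 was 0.54. The sgEED call on BNIP3 ended with 3 of the 4 libraries left out. In sgKMT2D, BNIP3 stood at 96.3 and 99.5 CPM in sgKMT2D-Mes libraries, against 103 and 106 CPM in sgKMT2D-Epi libraries, which was not called.

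**Figure D2:**
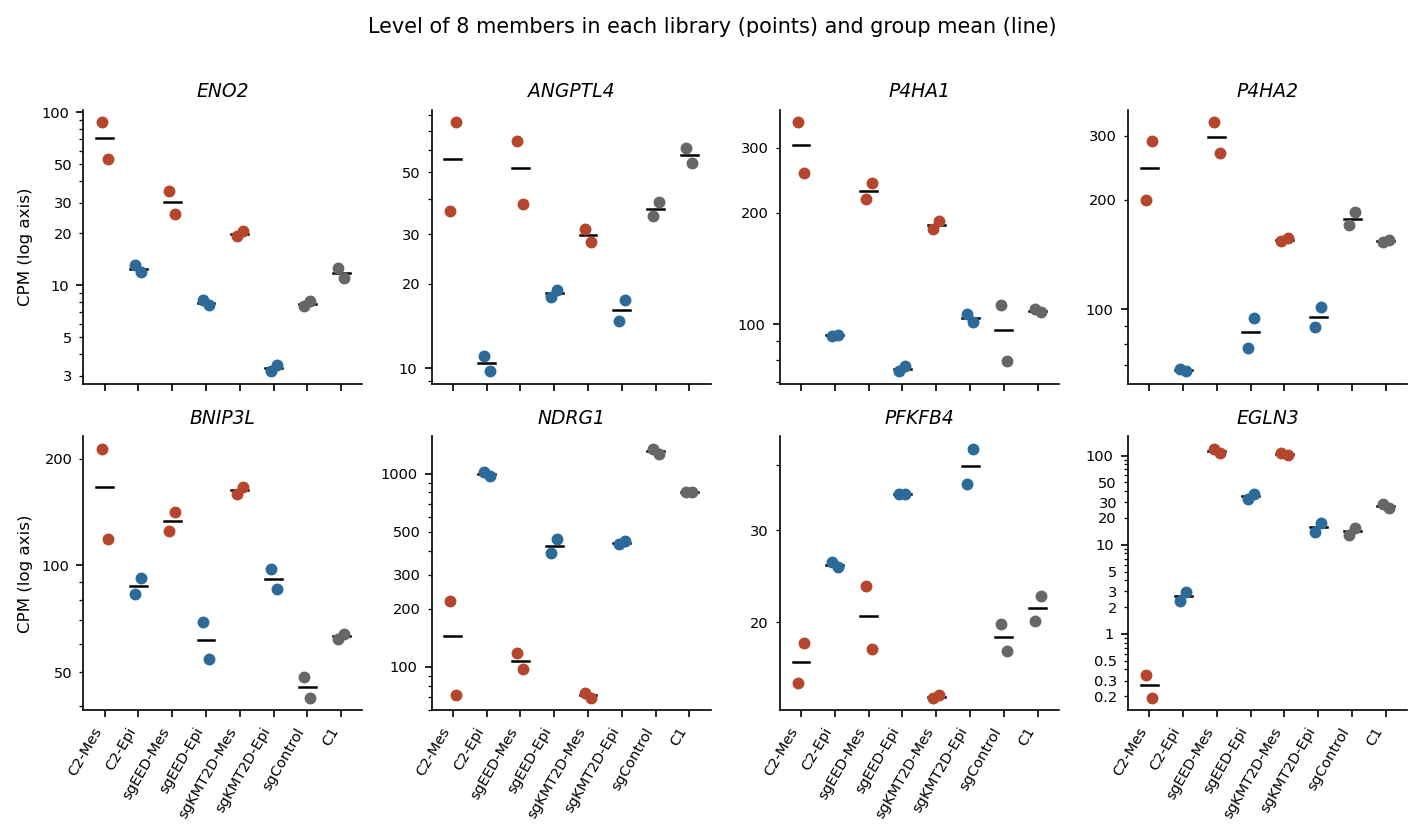
CPM (log axis) of 8 members in each of the 16 libraries, with points for libraries and a line for the mean of each group. Mesenchymal groups (red) stand left of their epithelial group (blue), with the controls in grey. ENO2, ANGPTL4, P4HA1, P4HA2 and BNIP3L are above their epithelial group in all 3 lineages, NDRG1 and PFKFB4 below it, and EGLN3 is near 0 CPM in C2-Mes and highest in sgEED-Mes and sgKMT2D-Mes.

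NDRG1 (ENSG00000104419), a stress-responsive gene that hypoxia strongly induces and that also rises with epithelial differentiation, was lower in all mesenchymal groups. It had 219 and 71.2 CPM in C2-Mes libraries, against 1016 and 974 CPM in C2-Epi libraries. NDRG1 had 117 and 97.5 CPM in sgEED-Mes libraries, against 389.9 and 458.1 CPM in sgEED-Epi libraries. NDRG1 had 73.5 and 69.0 CPM in sgKMT2D-Mes libraries, against 431 and 448 CPM in sgKMT2D-Epi libraries. Every mesenchymal library was below every epithelial library of the series. NDRG1 fell by 2.78 on the log2 scale in C2 (adjusted p = 2.8e-05), by 1.98 in sgEED (adjusted p = 0.00049) and by 2.63 in sgKMT2D (adjusted p = 3.7e-05), with standard errors of 0.35, 0.34 and 0.35. Without C2-Mes replicate 1, the higher of the C2-Mes libraries, the C2 change was -3.91.

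PFKFB4 makes and breaks fructose 2,6-bisphosphate, the activator of phosphofructokinase, and is a HIF target (ENSG00000114268, chr3:48517684-48562015, - strand). Its level was 15.3 and 18.3 CPM in C2-Mes libraries, against 26.05 and 25.5 CPM in C2-Epi libraries. PFKFB4 had 23.4 and 17.8 CPM in sgEED-Mes libraries, against 35.1 and 35.2 CPM in sgEED-Epi libraries. PFKFB4 had 14.3 and 14.5 CPM in sgKMT2D-Mes libraries, against 36.7 and 42.9 CPM in sgKMT2D-Epi libraries. The mesenchymal libraries were the lower ones throughout, most of all in sgKMT2D. PFKFB4 changed by -0.61 ± 0.16 in C2 (adjusted p = 0.0083), -0.77 ± 0.16 in sgEED (adjusted p = 0.0019) and -1.46 ± 0.17 in sgKMT2D (adjusted p = 6.3e-06), and the C2 call ended in a fit of only the 4 libraries compared (adjusted p = 0.096). Counts of UCN2, which overlaps PFKFB4 on the same strand, amounted to 36.7% of its own, and how shared reads were assigned is not given in the sources used here.

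The stretch upstream of the start is shown for the members called in the same direction in all 3 lineages and for EGLN3, which went in opposite directions, together with LDHA, which held more ACGTG matches than any other member searched. Of the 38 members, 34 matched the RefSeq promoter table (GRCh38.p14), and the entries for VEGFA, SLC2A3, NDRG1 and BNIP3L were not among them. Each window holds the 250 bases before the annotated start, written 5′ to 3′ along the gene. Capitals mark the core of the hypoxia response element on either strand, ACGTG or GCGTG, which read CACGT or CACGC on the other strand, with overlapping matches merged.
ENO2 (chr12:6914330-6914579, + strand): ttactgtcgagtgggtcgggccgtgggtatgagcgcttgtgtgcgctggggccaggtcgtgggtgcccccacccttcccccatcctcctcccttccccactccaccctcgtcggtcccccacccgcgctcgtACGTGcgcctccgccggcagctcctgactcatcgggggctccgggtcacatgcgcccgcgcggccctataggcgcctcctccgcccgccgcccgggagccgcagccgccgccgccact
P4HA1 (chr10:73096867-73097116, - strand): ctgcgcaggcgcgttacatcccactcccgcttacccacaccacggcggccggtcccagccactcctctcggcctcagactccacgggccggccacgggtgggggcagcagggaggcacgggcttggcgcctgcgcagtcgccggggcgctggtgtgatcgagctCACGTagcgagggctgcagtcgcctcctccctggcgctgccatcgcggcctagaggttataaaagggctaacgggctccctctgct
P4HA2 (chr5:132227092-132227341, - strand): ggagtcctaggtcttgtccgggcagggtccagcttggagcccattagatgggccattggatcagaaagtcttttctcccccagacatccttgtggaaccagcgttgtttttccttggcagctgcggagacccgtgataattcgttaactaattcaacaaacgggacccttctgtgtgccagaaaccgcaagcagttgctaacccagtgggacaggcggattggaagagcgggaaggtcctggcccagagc
ANGPTL4 (chr19:8363905-8364154, + strand): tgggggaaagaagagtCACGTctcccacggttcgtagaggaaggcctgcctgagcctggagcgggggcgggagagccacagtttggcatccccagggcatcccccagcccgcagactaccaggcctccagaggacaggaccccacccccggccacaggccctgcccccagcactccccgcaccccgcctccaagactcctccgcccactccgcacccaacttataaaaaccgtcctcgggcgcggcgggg
PFKFB4 (chr3:48556804-48557053, - strand): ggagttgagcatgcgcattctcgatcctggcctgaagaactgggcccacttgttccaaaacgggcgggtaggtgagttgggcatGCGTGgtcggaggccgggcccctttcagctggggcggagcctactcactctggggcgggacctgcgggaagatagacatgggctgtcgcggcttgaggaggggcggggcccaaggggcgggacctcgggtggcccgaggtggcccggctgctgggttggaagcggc
EGLN3 (chr14:33951075-33951324, - strand): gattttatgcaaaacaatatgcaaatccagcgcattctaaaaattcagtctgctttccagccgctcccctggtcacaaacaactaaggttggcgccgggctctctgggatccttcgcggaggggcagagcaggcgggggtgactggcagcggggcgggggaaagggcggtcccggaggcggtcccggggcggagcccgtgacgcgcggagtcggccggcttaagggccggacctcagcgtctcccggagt
LDHA (chr11:18394313-18394562, + strand): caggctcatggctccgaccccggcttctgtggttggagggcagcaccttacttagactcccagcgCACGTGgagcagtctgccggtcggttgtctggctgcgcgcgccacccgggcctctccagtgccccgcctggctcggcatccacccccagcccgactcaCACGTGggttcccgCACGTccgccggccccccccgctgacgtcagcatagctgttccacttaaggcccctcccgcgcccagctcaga
A core was present in 23 of the 34 member windows (67.6%), against 15172 of all 35116 windows in the table (43.2%), and ACGTG alone in 14 (41.2%), against 18.5% of all windows. The windows were not matched on base composition. Among the members that rose in all 3 lineages, ENO2, P4HA1 and ANGPTL4 each held 1 core and P4HA2 none, and PFKFB4, which fell in all 3, also held 1. EGLN3, with no core in its window, and LDHA, with 5 matches, both changed in different ways between lineages. In LDHA, 2 CACGTG sites were each matched on both strands, so its 5 matches are not 5 separate sites. A match describes letters in this window and not a bound site, and annotated starts are not necessarily those used in these cells.

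Among the oxygen sensors, HIF1A rose in C2 and sgKMT2D while EPAS1 fell in C2. HIF1A had 682 and 578 CPM in C2-Mes libraries, against 261 and 303 CPM in C2-Epi libraries. HIF1A had 603 and 595 CPM in sgEED-Mes libraries, against 503 and 277 CPM in sgEED-Epi libraries. HIF1A had 668 and 691 CPM in sgKMT2D-Mes libraries, against 395 and 335 CPM in sgKMT2D-Epi libraries. All mesenchymal libraries lay above their epithelial group, and the sgEED-Epi libraries differed widely from each other. The change was 1.16 ± 0.23 in C2 (adjusted p = 0.0012) and 0.90 ± 0.23 in sgKMT2D (adjusted p = 0.0052), and 0.62 ± 0.23 in sgEED, at the threshold, did not pass (adjusted p = 0.05). The sgEED change was 1.096 without sgEED-Epi replicate 1 (adjusted p = 0.0022) and 0.19 without sgEED-Epi replicate 2 (adjusted p = 0.56). The sgKMT2D call ended without replicate 2 of either group (adjusted p = 0.091 and 0.052). EPAS1, which encodes HIF-2 alpha, had 68.3 and 21.1 CPM in C2-Mes libraries, against 109 and 115 CPM in C2-Epi libraries. EPAS1 had 175 and 177 CPM in sgEED-Mes libraries, against 169 and 196 CPM in sgEED-Epi libraries. EPAS1 had 65.6 and 61.6 CPM in sgKMT2D-Mes libraries, against 96.0 and 93.9 CPM in sgKMT2D-Epi libraries. The groups overlapped in the EED lineage and were separate in the others. EPAS1 changed by -1.33 ± 0.35 in C2 (adjusted p = 0.0074) and by -2.52 without C2-Mes replicate 1 and -0.76 without C2-Mes replicate 2, and the C2 call ended in a fit of only the 4 libraries compared (adjusted p = 0.18). Per length, EPAS1 made 4.55% ± 2.89 of the summed HIF1A and EPAS1 TPM in C2-Mes, against 21.96% ± 1.26 in C2-Epi (SD, n = 2 each). In sgKMT2D cells the share was 6.19% ± 0.396 in the mesenchymal state, against 15.6% ± 1.32 in the epithelial state (SD, n = 2 each).

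EGLN3, the hydroxylase that is itself a strong HIF target, showed the widest range of any member (ENSG00000129521, chr14:33924231-34462774, - strand). It had 0.351 and 0.192 CPM in C2-Mes libraries, against 2.35 and 2.92 CPM in C2-Epi libraries. EGLN3 had 119 and 105 CPM in sgEED-Mes libraries, against 32.7 and 37.4 CPM in sgEED-Epi libraries. EGLN3 had 106 and 101 CPM in sgKMT2D-Mes libraries, against 13.8 and 17.5 CPM in sgKMT2D-Epi libraries. Low in C2-Mes and high in both guide lineages, the groups did not overlap anywhere. C2-Mes held the lowest level of the 8 groups, and sgEED-Mes and sgKMT2D-Mes the highest, overlapping each other. The sgEED-Mes mean exceeded that of C2-Mes by a ratio of 413 in CPM. The log2 change was -3.37 ± 0.31 in C2 (adjusted p = 8.2e-07), 1.68 ± 0.17 in sgEED (adjusted p = 3.5e-06) and 2.73 ± 0.18 in sgKMT2D (adjusted p = 3.3e-08), and each call held under every alternative and with each library left out. The sgEED change exceeded that of C2 by 5.04 ± 0.35 (adjusted p = 2.1e-07) and the sgKMT2D change exceeded it by 6.10 ± 0.34 (adjusted p = 6.3e-08). Per length, EGLN3 made 69.7% ± 3.08 of the summed EGLN1 and EGLN3 TPM in sgKMT2D-Mes and 66.4% ± 8.10 in sgEED-Mes, but 0.691% ± 0.0421 in C2-Mes (SD, n = 2 each). EGLN1, the main hydroxylase of HIF1A, was called in no lineage, with changes of 0.55, 0.44 and 0.03 in C2, sgEED and sgKMT2D.

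For glucose uptake, the transporter SLC2A3 rose in the C2 and KMT2D lineages and the hexokinase HK2 fell in the guide lineages. SLC2A3 encodes GLUT3, a high-affinity transporter. It had 263 and 111 CPM in C2-Mes libraries, against 38.2 and 40.2 CPM in C2-Epi libraries. SLC2A3 had 67.5 and 68.1 CPM in sgEED-Mes libraries, against 64.7 and 77.4 CPM in sgEED-Epi libraries. SLC2A3 had 132 and 129.5 CPM in sgKMT2D-Mes libraries, against 39.8 and 38.5 CPM in sgKMT2D-Epi libraries. The sgEED groups overlapped, and the other pairs were far apart. SLC2A3 rose by 2.25 ± 0.28 in C2 (adjusted p = 2.3e-05), or 1.40 without C2-Mes replicate 1, and by 1.74 ± 0.28 in sgKMT2D (adjusted p = 0.00016). Its change in sgEED minus that in C2 was -2.32 ± 0.39 (adjusted p = 0.00071; -1.50 without C2-Mes replicate 1), and minus that in sgKMT2D -1.81 ± 0.39 (adjusted p = 0.0049). SLC2A1, the widespread transporter GLUT1, fell in sgKMT2D (-0.71 ± 0.21, adjusted p = 0.012), a call that ended without replicate 2 of either group (adjusted p = 0.055 and 0.076). Per length, SLC2A3 made 61.2% ± 1.96 of their summed TPM in sgKMT2D-Mes, against 22.4% ± 1.82 in sgKMT2D-Epi, and 64.6% ± 5.39 in C2-Mes, against 26.02% ± 2.09 in C2-Epi (SD, n = 2 each). In sgEED-Mes the share was 26.6% ± 3.69, against 29.8% ± 0.945 in sgEED-Epi (SD, n = 2 each).

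HK2, the inducible hexokinase bound to mitochondria, had 101 and 37.3 CPM in C2-Mes libraries, against 97.7 and 94.4 CPM in C2-Epi libraries. HK2 had 47.8 and 47.9 CPM in sgEED-Mes libraries, against 127 and 147 CPM in sgEED-Epi libraries. HK2 had 23.9 and 23.98 CPM in sgKMT2D-Mes libraries, against 103 and 93.6 CPM in sgKMT2D-Epi libraries. The C2-Mes libraries lay on either side of C2-Epi, and the mesenchymal libraries of both guides were below their epithelial groups. HK2 fell by 1.52 ± 0.32 in sgEED (adjusted p = 0.002) and by 2.03 ± 0.33 in sgKMT2D (adjusted p = 0.00017), while the C2 change of -0.48 ± 0.31 did not pass (adjusted p = 0.26). HK1, the constitutive hexokinase, was called in no lineage (log2 changes of -0.07, -0.25 and -0.16 in C2, sgEED and sgKMT2D).

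The 13 genes of the glycolytic steps moved in different directions by lineage. In C2-Mes, 7 were higher and none lower (53.8% called, against 39.6% of all genes). In sgEED-Mes 1 was higher (ENO2) and none lower (7.69%, against 36.5%), and in sgKMT2D-Mes 4 were higher and 5 lower (69.2%, against 50.8%). The C2 calls were ENO2, PFKL, ALDOC, GAPDH, PFKP, PGK1 and GPI, of which the last 3 were small (log2 changes of 0.53, 0.45 and 0.44) and ended under library totals alone, with no filter, in a fit of only the 4 libraries compared and with 3 of the 4 libraries left out. Those higher in sgKMT2D-Mes were ENO2, PFKL, ALDOC and ALDOA, which act at the enolase, phosphofructokinase and aldolase steps. Those lower in sgKMT2D-Mes were LDHA, ENO1, PGK1, PFKP and PGAM1, from the phosphofructokinase step and 4 of the later steps, while GAPDH and PKM did not pass. TPI1 and PKM were called in no lineage.

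ALDOC, an aldolase best known from brain, had 88.2 and 89.3 CPM in C2-Mes libraries, against 49.7 and 49.2 CPM in C2-Epi libraries. ALDOC had 35.8 and 32.3 CPM in sgKMT2D-Mes libraries, against 17.1 and 17.1 CPM in sgKMT2D-Epi libraries. Neither pair overlapped. Its change was 0.84 ± 0.15 in C2 (adjusted p = 0.00058) and 0.99 ± 0.16 in sgKMT2D (adjusted p = 0.00014), and in the EED lineage, at 47.7 and 37.2 CPM in sgEED-Mes libraries, against 30.6 and 35.2 CPM in sgEED-Epi libraries, it was not called. PFKL, the liver-type phosphofructokinase, rose by 1.08 ± 0.23 in C2 (adjusted p = 0.0018) and by 1.15 ± 0.23 in sgKMT2D (adjusted p = 0.00088). Without C2-Mes replicate 2 the log2 change of PFKL in C2 was 0.71. PFKP, the platelet type of the same enzyme, rose by 0.53 ± 0.13 in C2 (adjusted p = 0.0054) and changed by -0.56 ± 0.13 in sgKMT2D (adjusted p = 0.003). LDHA, which turns pyruvate into lactate, had 1199 and 1171 CPM in sgKMT2D-Mes libraries, against 2162 and 2098 CPM in sgKMT2D-Epi libraries. PGK1, the first step of glycolysis to make ATP, had 345 and 338 CPM in sgKMT2D-Mes libraries, against 516 and 526 CPM in sgKMT2D-Epi libraries. Both genes had every mesenchymal library below every epithelial one. Their changes were -0.85 ± 0.14 for LDHA (adjusted p = 0.00025) and -0.61 ± 0.14 for PGK1 (adjusted p = 0.0019). ENO1, the main enolase, changed by -0.72 ± 0.17 in the same lineage (adjusted p = 0.0024). LDHA was called in neither other lineage, and its change in sgKMT2D was below that in sgEED, which exceeded it by 0.90 ± 0.20 (adjusted p = 0.0064). Pseudogenes, of which GAPDH has 62 in the annotation, held at most 1.32% of the counts of any member in a library.

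**Figure D3:**
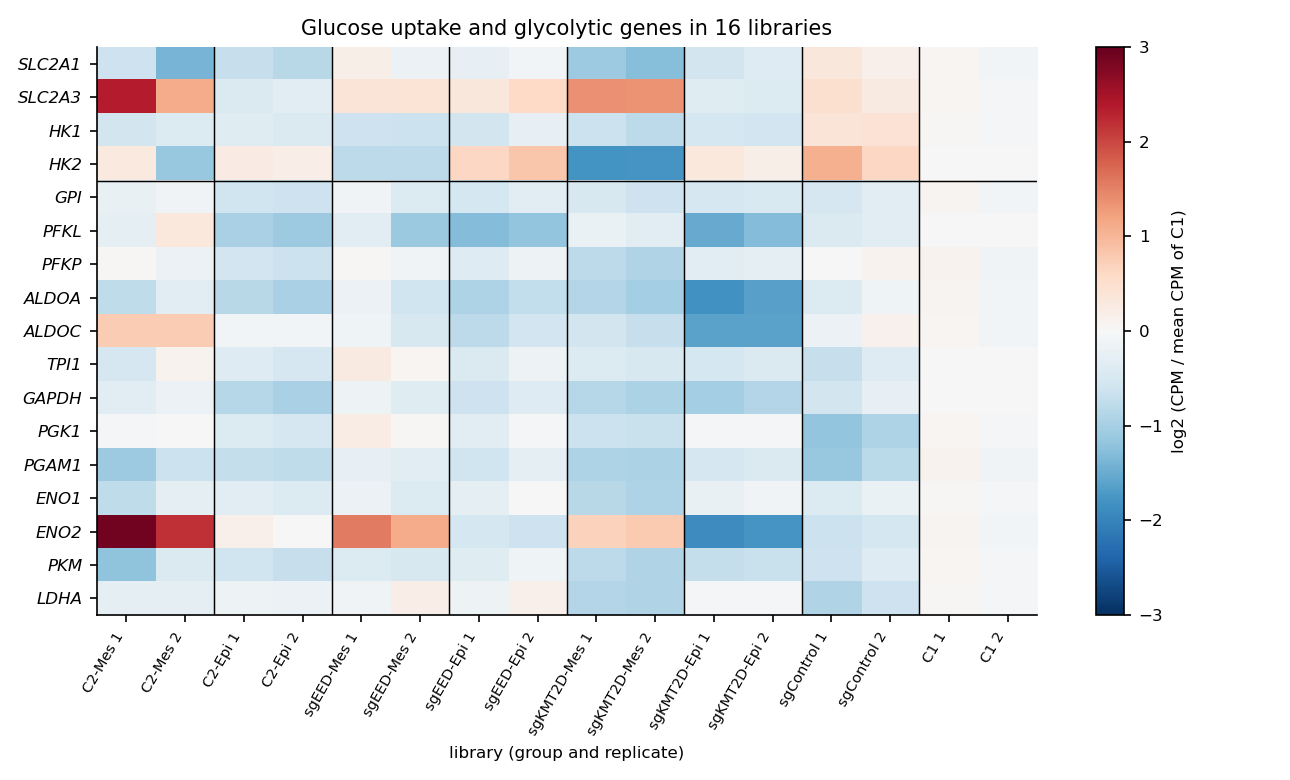
Log2 ratio of CPM to the mean of C1 (colour, capped at ± 3) for the glucose uptake genes (above the line) and the glycolytic steps (below it), with 1 column per library. The reddest rows are ENO2 and SLC2A3 in the C2-Mes columns, ENO2 in the sgEED-Mes columns and SLC2A3 in the sgKMT2D-Mes columns. By group mean, LDHA, ENO1 and PKM are lowest in sgKMT2D-Mes and PGK1 and PGAM1 in sgControl.

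Among the switches of flux, PFKFB3, a relative of PFKFB4 with strong kinase activity, was called in C2 alone. PFKFB3 stood at 82.6 and 68.0 CPM in C2-Mes libraries, against 39.7 and 42.7 CPM in C2-Epi libraries, a change of 0.87 ± 0.15 (adjusted p = 0.00042). The sgEED change minus that of C2 was -1.02 ± 0.22 (adjusted p = 0.0035, or 0.055 with only the libraries compared), and the sgKMT2D change minus that of C2 was -0.92 ± 0.22 (adjusted p = 0.0066). PDK1, a kinase that shuts pyruvate dehydrogenase, rose in sgEED (0.81 ± 0.30, adjusted p = 0.047) and fell in sgKMT2D (-0.87 ± 0.30, adjusted p = 0.026), and both calls ended with any of the 4 libraries left out (highest adjusted p = 0.29 and 0.14).

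The 3 genes of lactate export and pH all rose in C2 and none was called in the guide lineages, against 39.6%, 36.5% and 50.8% of all genes called in C2, sgEED and sgKMT2D. CA12, a carbonic anhydrase at the cell surface, had 457.7 and 292 CPM in C2-Mes libraries, against 78.3 and 79.4 CPM in C2-Epi libraries. CA12 had 146 and 157 CPM in sgEED-Mes libraries, against 141 and 169 CPM in sgEED-Epi libraries. CA12 had 81.7 and 79.4 CPM in sgKMT2D-Mes libraries, against 85.8 and 88.3 CPM in sgKMT2D-Epi libraries. Only the C2 pair was far apart. CA12 rose by 2.25 ± 0.18 in C2 (adjusted p = 2.4e-07), and the difference from C2 was -2.28 ± 0.25 for sgEED (adjusted p = 1.5e-05) and -2.36 ± 0.25 for sgKMT2D (adjusted p = 1.4e-05). CA9, its close relative and a classic HIF1A target, had 83.9 and 29.4 CPM in C2-Mes libraries, against 9.07 and 8.69 CPM in C2-Epi libraries. CA9 had 7.94 and 4.89 CPM in sgEED-Mes libraries, against 6.93 and 7.34 CPM in sgEED-Epi libraries. CA9 had 1.30 and 1.23 CPM in sgKMT2D-Mes libraries, against 0.815 and 0.637 CPM in sgKMT2D-Epi libraries. CA9 was near the bottom of the measured range in sgKMT2D cells and high only in C2-Mes, where replicate 1 far exceeded replicate 2. The C2 change was 2.67 ± 0.37 (adjusted p = 6.2e-05) and 1.62 without C2-Mes replicate 1 (adjusted p = 9.8e-06). SLC16A3, the lactate exporter MCT4, had 68.5 and 91.7 CPM in C2-Mes libraries, against 32.8 and 28.9 CPM in C2-Epi libraries, a rise of 1.38 ± 0.25 (adjusted p = 0.00054). Exons of CA9 overlap ARHGEF39, and those of SLC16A3 overlap CSNK1D, on the other strand, with counts of 99.1% and 183% of the member's own, and whether counting used strand is not given in the sources used here.

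Of the secreted factors besides ANGPTL4, VEGFA fell in C2 and sgKMT2D and ADM was called higher in C2. VEGFA, the main growth factor of blood vessels, had 234 and 123 CPM in C2-Mes libraries, against 291 and 332 CPM in C2-Epi libraries. VEGFA had 86.3 and 97.6 CPM in sgEED-Mes libraries, against 126 and 147 CPM in sgEED-Epi libraries. VEGFA had 24.3 and 22.6 CPM in sgKMT2D-Mes libraries, against 82.3 and 75.2 CPM in sgKMT2D-Epi libraries. The mesenchymal libraries were lower in each lineage. VEGFA fell by 0.81 ± 0.25 in C2 (adjusted p = 0.02) and by 1.75 ± 0.26 in sgKMT2D (adjusted p = 8.1e-05), while -0.56 ± 0.25 in sgEED did not pass (adjusted p = 0.096). The C2 change was -1.46 without C2-Mes replicate 1, and the C2 call ended without C2-Mes replicate 2 or C2-Epi replicate 2 (adjusted p = 0.067 and 0.092). ADM, which encodes the vasodilator adrenomedullin, had 22.8 and 6.997 CPM in C2-Mes libraries, against 5.49 and 6.07 CPM in C2-Epi libraries. ADM had 37.98 and 32.7 CPM in sgEED-Mes libraries, against 25.6 and 31.7 CPM in sgEED-Epi libraries. ADM had 16.3 and 14.1 CPM in sgKMT2D-Mes libraries, against 17.6 and 17.2 CPM in sgKMT2D-Epi libraries. The C2-Mes libraries were far apart, with replicate 2 close to C2-Epi. The C2 rise of 1.34 ± 0.38 (adjusted p = 0.012) was 0.17 without C2-Mes replicate 1 (adjusted p = 0.53) and 1.94 without C2-Mes replicate 2.

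Of the other targets, KDM3A was called in both guide lineages and ANKRD37 in sgEED. KDM3A, a histone demethylase that needs oxygen, rose in sgEED (0.85 ± 0.19, adjusted p = 0.0032) and in sgKMT2D (0.55 ± 0.19, adjusted p = 0.027), the second call ending with any of the 4 libraries left out. ANKRD37, a short hypoxia-induced ankyrin protein, had 5.08 and 4.67 CPM in sgEED-Mes libraries, against 2.40 and 3.54 CPM in sgEED-Epi libraries. ANKRD37 had 2.80 and 2.14 CPM in C2-Mes libraries, against 2.35 and 2.50 CPM in C2-Epi libraries. ANKRD37 had 3.64 and 4.11 CPM in sgKMT2D-Mes libraries, against 2.76 and 2.39 CPM in sgKMT2D-Epi libraries. The C2 groups overlapped and those of the guide lineages did not, with a call in sgEED alone (0.71 ± 0.23, adjusted p = 0.026) that ended with 3 of the 4 libraries left out. Its exons overlap those of UFSP2 on the other strand, which had 771% of its counts. MXI1, a MYC antagonist, was called in no lineage, with changes of 0.09, 0.14 and 0.49 in C2, sgEED and sgKMT2D. Its C2 change took either sign when a C2-Mes library was left out, at -0.56 without C2-Mes replicate 1 and 0.45 without C2-Mes replicate 2 (adjusted p = 0.016 and 0.044).

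The differences between lineages were tested as the difference of their mesenchymal minus epithelial changes. Between sgKMT2D and C2, 16 members differed, 1 with a positive difference (sgKMT2D minus C2) and 15 with a negative one, against 24.1% of all genes called (12.3% positive and 11.8% negative). Between sgEED and C2, 5 differed, 1 positive and 4 negative (sgEED minus C2), against 21.1% (10.2% and 10.9%). Between sgEED and sgKMT2D, 11 differed, 9 positive and 2 negative (sgEED minus sgKMT2D), against 20.1% (9.24% and 10.9%). A negative difference can be a smaller rise, a deeper fall or a fall in place of a rise, as for PFKP and PGK1 between sgKMT2D and C2. EGLN3 was the member with a positive difference from C2 in each guide lineage. The 15 with a negative difference between sgKMT2D and C2 were CA12, PGK1, PFKP, SLC16A3, P4HA2, PFKFB3, BNIP3, PDK1, ANGPTL4, PFKFB4, LDHA, P4HA1, HK2, GAPDH and ADM. SLC16A3 differed by -1.76 ± 0.35 (adjusted p = 0.0023), BNIP3 by -1.21 ± 0.29 (adjusted p = 0.0074) and PGK1 by -1.06 ± 0.19 (adjusted p = 0.0012). Without C2-Mes replicate 1 the BNIP3 difference was -0.71. The differences that held under every alternative and with each library left out numbered 8 of 16 between sgKMT2D and C2 (BNIP3, CA12, EGLN3, P4HA2, PFKFB3, PFKP, PGK1 and SLC16A3), 4 of 5 between sgEED and C2 (all but PFKFB3) and 5 of 11 between sgEED and sgKMT2D (LDHA, P4HA2, PFKP, PGK1 and SLC2A3).

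**Figure D4:**
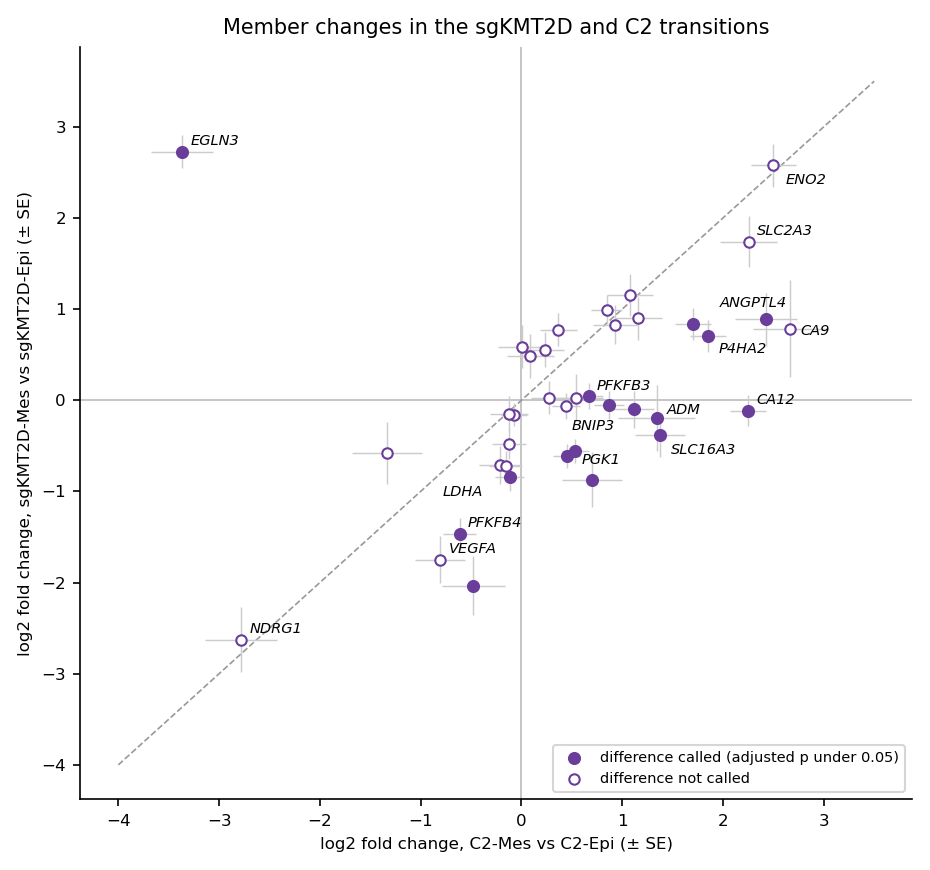
Log2 fold change of each member in C2-Mes against C2-Epi (x axis) and in sgKMT2D-Mes against sgKMT2D-Epi (y axis), with bars of ± SE and a dashed line of equal change. Filled points are the 16 members whose difference passed an adjusted p of 0.05. EGLN3 lies alone above the line at upper left, and the other filled points lie below it, among them CA12, SLC16A3 and ADM.

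Of 11 further genes of the HIF pathway, 4 were higher and 1 lower in C2-Mes, 2 and 0 in sgEED-Mes, and 4 and 2 in sgKMT2D-Mes. The called shares of 45.5%, 18.2% and 54.5% in C2, sgEED and sgKMT2D stand against 39.6%, 36.5% and 50.8% of all genes. CITED2, which competes with HIF for the coactivator p300, rose in each lineage, by 2.50 ± 0.27, 1.21 ± 0.26 and 2.06 ± 0.26 in C2, sgEED and sgKMT2D (adjusted p = 5.2e-06, 0.002 and 2e-05). ARNT, the HIF beta subunit, rose in C2 (0.66, adjusted p = 0.0022) and sgKMT2D (0.81, adjusted p = 0.00037). Its relative ARNT2 rose in sgEED (2.61, adjusted p = 1.2e-06) and sgKMT2D (0.71, adjusted p = 0.04) and was called lower in C2-Mes, with 0.0584 and 0.160 CPM there, against 2.02 and 1.73 CPM in C2-Epi (adjusted p = 1.7e-06). EGLN2, the remaining prolyl hydroxylase, rose in C2 (1.13, adjusted p = 0.0018). ELOB, an adaptor of the VHL ubiquitin ligase, rose in sgKMT2D (1.48, adjusted p = 0.0012), and its scaffold CUL2 fell in sgKMT2D (-0.79, adjusted p = 0.006).

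Of 29 further glycolysis and lactate genes, 23 were tested, and 6 were higher and 4 lower in C2-Mes, 4 and 4 in sgEED-Mes and 5 and 8 in sgKMT2D-Mes. These are 43.5%, 34.8% and 56.5% of those tested, near the 39.6%, 36.5% and 50.8% of all genes. The kinases of pyruvate dehydrogenase moved apart. PDK4 had 10.5 and 5.11 CPM in C2-Mes libraries, against 0.145 and 0 CPM in C2-Epi libraries. PDK4 had 5.22 and 5.15 CPM in sgEED-Mes libraries, against 1.56 and 1.37 CPM in sgEED-Epi libraries. PDK4 had 13.8 and 16.7 CPM in sgKMT2D-Mes libraries, against 1.21 and 0.637 CPM in sgKMT2D-Epi libraries. It was low in the epithelial groups and higher in every mesenchymal library. PDK4 rose by 1.82 ± 0.39 in sgEED (adjusted p = 0.0021) and 4.03 ± 0.41 in sgKMT2D (adjusted p = 2.5e-06). It was also called higher in C2-Mes (adjusted p = 7.9e-07), where a C2-Epi level at or near 0 allows no size of change. PDK2 rose in C2 (1.85, adjusted p = 5.9e-06), sgEED (1.62, adjusted p = 1.6e-05) and sgKMT2D (2.31, adjusted p = 4.3e-07). PDK3 fell in C2 (-4.08, adjusted p = 1e-08) and sgKMT2D (-1.32, adjusted p = 8.8e-05). PFKFB2, a relative of PFKFB4, fell in C2 (-1.40, adjusted p = 0.00016), sgEED (-1.81, adjusted p = 2e-05) and sgKMT2D (-1.98, adjusted p = 6.8e-06). BPGM, which makes bisphosphoglycerate, rose in C2 (2.21, adjusted p = 1.1e-07) and sgKMT2D (0.87, adjusted p = 0.00048), and PGM1, which links glycogen to glycolysis, rose in sgEED (0.73, adjusted p = 0.0014).

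Of 32 further hypoxia targets, 31 were tested, and 16 were higher and 5 lower in C2-Mes, 19 and 4 in sgEED-Mes and 13 and 10 in sgKMT2D-Mes. Called in either direction were 67.7% in C2, 74.2% in sgEED and 74.2% in sgKMT2D, against 39.6%, 36.5% and 50.8% of all genes. STC1, a secreted stanniocalcin, rose in C2 (7.79, adjusted p = 4.8e-10), sgEED (2.07, adjusted p = 8.3e-06) and sgKMT2D (2.54, adjusted p = 2.5e-06), the first set against no more than 0.325 CPM in C2-Epi. Its relative STC2 rose in C2 (1.12, adjusted p = 0.032) and sgEED (1.24, adjusted p = 0.021) and fell in sgKMT2D (-1.93, adjusted p = 0.001). LOX, which cross-links collagen, rose in C2 (4.04, adjusted p = 3.4e-06) and sgEED (3.53, adjusted p = 1.1e-05). The lipoprotein receptor VLDLR rose in C2 (3.19, adjusted p = 9.7e-08) and sgEED (3.37, adjusted p = 1.2e-07). EDN1, which encodes endothelin-1, fell in sgEED (-3.33, adjusted p = 1.1e-07) and sgKMT2D (-5.11, adjusted p = 1.1e-08) and was called lower in C2-Mes, with 0.0584 and 0.224 CPM there, against 4.30 and 4.27 CPM in C2-Epi (adjusted p = 1.3e-07). RORA, a nuclear receptor, rose in C2 (4.45, adjusted p = 7.9e-05), sgEED (1.77, adjusted p = 0.014) and sgKMT2D (1.46, adjusted p = 0.03), with 18.1 and 4.60 CPM in the C2-Mes libraries. LOX is also a known gene of the mesenchymal state, and the part of the state in its change was not tested.

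Of 7 genes of the pentose phosphate pathway, which branches from glycolysis to make NADPH and ribose, 4 were higher and 2 lower in C2-Mes, 1 and 2 in sgEED-Mes and 2 and 2 in sgKMT2D-Mes. Of the 7, 85.7% were called in C2, 42.9% in sgEED and 57.1% in sgKMT2D, against 39.6%, 36.5% and 50.8% of all genes. RPIA, which isomerises ribose 5-phosphate, fell in C2 (-0.81, adjusted p = 0.00076), sgEED (-0.73, adjusted p = 0.002) and sgKMT2D (-1.52, adjusted p = 3e-06). PGD, the next oxidative step after PGLS, rose in C2 (0.60, adjusted p = 0.012) and fell in sgEED (-0.58, adjusted p = 0.016).

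Among epithelial groups, the plastic C2-Epi had lower levels of many members than the stable C1: 2 members were higher and 17 lower, against 12.4% of all genes higher and 18.3% lower (30.7% in all). The median log2 difference of the members was -0.45, against -0.04 over all genes. EGLN3 differed by -3.38 ± 0.20 (adjusted p = 9.6e-08), with 2.35 and 2.92 CPM in C2-Epi, against 28.9 and 26.02 CPM in C1. ANGPTL4 had 11.1 and 9.76 CPM in C2-Epi, against 60.8 and 53.8 CPM in C1, a difference of -2.46 ± 0.30 (adjusted p = 6.5e-05). ADM had 5.49 and 6.07 CPM in C2-Epi, against 15.7 and 17.2 CPM in C1, a difference of -1.51 ± 0.38 (adjusted p = 0.0092). None of these 3 overlapped between the groups. The next largest negative differences among the lower calls were CA12 (-1.39), SLC16A3 (-1.32), P4HA2 (-1.18), PFKL (-1.04), BNIP3 (-0.92), GAPDH (-0.91) and ALDOA (-0.89). VEGFA (0.99) and MXI1 (0.81) were higher. Calls that held under every alternative and with each library left out numbered 6 of 19, and the ADM call ended with any of the 4 libraries left out (highest adjusted p = 0.13). With any 1 of these libraries left out, a group keeps a single library, and fewer members and fewer of all genes were called. A correction for GC content and length changed the split of all called genes to 56.1% higher, against 40.4% without it.

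The epithelial cells with a guide were set against sgControl, and the outcome depended on which control was used. Against sgControl, 10 members were higher and 10 lower in sgEED-Epi (24.3% and 24.6% of all genes, 48.8% in all), and 8 were higher and 18 lower in sgKMT2D-Epi (25.3% and 30.7%, 56.0% in all). With a correction for GC content and length the sgKMT2D-Epi split was 12 higher and 10 lower. Over all genes it was then 4660 higher and 4909 lower, against 4625 and 5620 without the correction. Against C1, 2 were higher and 10 lower in sgEED-Epi (12.5% and 12.6% of all genes, 25.2% in all), and 1 was higher and 16 lower in sgKMT2D-Epi (16.4% and 22.4%, 38.8% in all). With both controls, 7 members were called in the same direction in sgEED-Epi and 12 in sgKMT2D-Epi, and 1 was called in opposite directions in each: CA9 in sgEED-Epi and PGAM1 in sgKMT2D-Epi. The comparisons share their control libraries and are not independent of each other.

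Members that kept their calls under every alternative and with each library left out in sgEED-Epi were HK1, P4HA2 and PFKFB4, and the same 3 together with VEGFA, ALDOA and ALDOC kept theirs in sgKMT2D-Epi. PFKFB4 had 35.1 and 35.2 CPM in sgEED-Epi and 36.7 and 42.9 CPM in sgKMT2D-Epi, against 19.9 and 17.6 CPM in sgControl and 20.1 and 22.4 CPM in C1. VEGFA had 126 and 147 CPM in sgEED-Epi and 82.3 and 75.2 CPM in sgKMT2D-Epi, against 335 and 221 CPM in sgControl and 157 and 156 CPM in C1. PFKFB4 was higher in both guide groups than in either control, and VEGFA was lower in both. PFKFB4 rose by 0.91 ± 0.16 in sgEED-Epi (adjusted p = 0.00048) and 1.09 ± 0.16 in sgKMT2D-Epi (adjusted p = 8.8e-05). VEGFA fell by 1.82 ± 0.26 in sgKMT2D-Epi (adjusted p = 5.5e-05), and its sgEED-Epi difference of -1.03 ± 0.25 (adjusted p = 0.0042) was -0.21 against C1 (adjusted p = 0.59). P4HA2 was lower in both, with differences of -1.04 ± 0.17 in sgEED-Epi (adjusted p = 0.00028) and -0.90 ± 0.17 in sgKMT2D-Epi (adjusted p = 0.00062). ALDOC had 17.1 and 17.1 CPM in sgKMT2D-Epi, against 46.0 and 57.5 CPM in sgControl, a difference of -1.60 ± 0.16 (adjusted p = 2.8e-06).

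HIF1A had 503 and 277 CPM in sgEED-Epi and 395 and 335 CPM in sgKMT2D-Epi, against 118 and 84.0 CPM in sgControl and 348 and 342 CPM in C1. ANKRD37 had 2.40 and 3.54 CPM in sgEED-Epi and 2.76 and 2.39 CPM in sgKMT2D-Epi, against 10.3 and 13.2 CPM in sgControl and 3.52 and 3.93 CPM in C1. For both genes sgControl was the group apart, and C1 lay among the guide libraries or next to them. HIF1A exceeded sgControl by 1.95 ± 0.24 in sgEED-Epi (adjusted p = 2.3e-05) and 1.85 ± 0.24 in sgKMT2D-Epi (adjusted p = 2.4e-05), but differed from C1 by 0.18 and 0.08 (adjusted p = 0.62 and 0.81). ANKRD37 differed from sgControl by -1.98 ± 0.23 in sgEED-Epi and -2.19 ± 0.23 in sgKMT2D-Epi (adjusted p = 1.3e-05 and 4.3e-06), and differed from C1 by -0.32 and -0.53 (adjusted p = 0.35 and 0.091). NDRG1 differed from sgControl by -1.62 ± 0.34 in sgEED-Epi and -1.57 ± 0.34 in sgKMT2D-Epi (adjusted p = 0.0016 and 0.0015). Its differences from C1, of -0.93 and -0.87, had the same sign but did not pass (adjusted p = 0.059 and 0.054). PGK1 and LDHA, higher than in sgControl in both guide groups (0.86 and 1.01 for PGK1, 0.76 and 0.71 for LDHA), differed from C1 by -0.19 and -0.044 for PGK1 and by -0.00104 and -0.048 for LDHA. CA9 had 6.93 and 7.34 CPM in sgEED-Epi and 0.815 and 0.637 CPM in sgKMT2D-Epi, against 2.69 and 2.53 CPM in sgControl and 16.1 and 14.5 CPM in C1. It lay between the controls in sgEED-Epi and below both in sgKMT2D-Epi, with a difference of -1.83 ± 0.49 from sgControl (adjusted p = 0.0062) that did not hold with a correction for GC content and length (adjusted p = 0.4) or without sgKMT2D-Epi replicate 2 (adjusted p = 0.062).

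**Figure D5:**
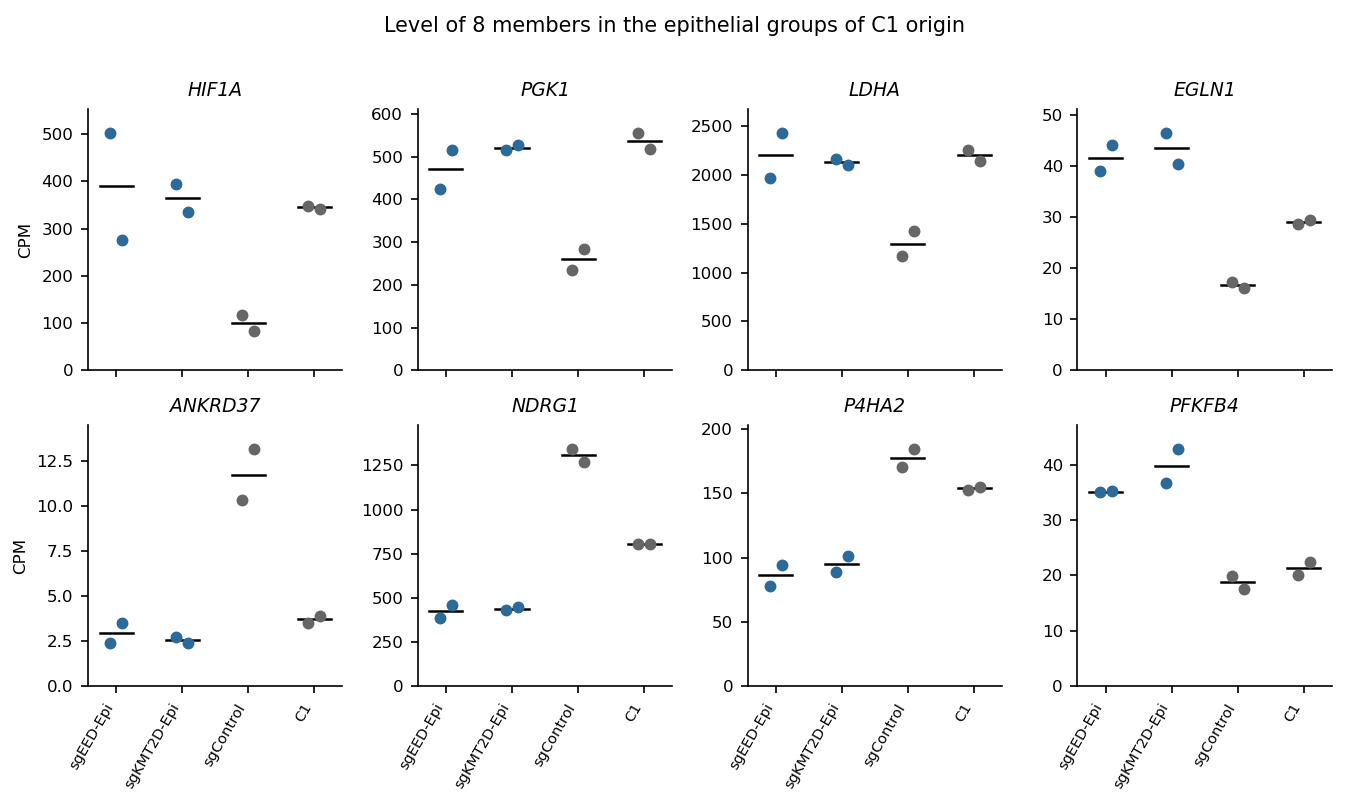
CPM (linear axis, beginning at 0) of 8 members in the epithelial groups made from C1, with points for libraries and a line for the mean of each group. Guide groups stand left and the controls sgControl and C1 right. For HIF1A, PGK1 and LDHA sgControl is lowest and C1 lies nearer the guide groups. For EGLN1 sgControl is lowest and C1 lies between it and the guide groups. For ANKRD37 and NDRG1 sgControl is highest, and for P4HA2 and PFKFB4 both controls lie on the same side of the guide groups.

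The controls themselves differed. Of the members, 5 were higher and 10 lower in sgControl than in C1, against 13.3% of all genes higher and 13.8% lower (27.1% in all). The difference, sgControl minus C1, was -1.77 ± 0.24 for HIF1A (adjusted p = 0.00018), -2.55 ± 0.40 for CA9 (adjusted p = 0.00059) and, for PGK1, -1.05 ± 0.14 (adjusted p = 0.00014). Lower calls were also made for PGAM1 (-0.97), EGLN3 (-0.96), CA12 (-0.86), EGLN1 (-0.80), LDHA (-0.76), KDM3A (-0.67) and GPI (-0.42). ANKRD37 was higher by 1.66 ± 0.22 (adjusted p = 0.00019), with higher calls also for ADM (1.33), VEGFA (0.82, or 0.48 without sgControl replicate 1), MXI1 (0.76) and HK1 (0.42). The sgControl libraries held less RNA of HIF1A and of the glycolytic enzymes PGK1, PGAM1, LDHA and GPI than C1, and more of ANKRD37, ADM and VEGFA. Of these, the calls on GPI, ADM and VEGFA did not hold with every library left out in turn. Of the 15 calls, 8 held under every alternative and with each library left out. With any 1 library left out, a group keeps a single library, and fewer members and fewer of all genes were called.

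Seen across all 16 libraries, the second principal component of the members' log2 levels, with 27.3% of their variance, placed the 6 mesenchymal libraries at 2.31 to 4.11 and the 10 epithelial ones at -3.42 to -0.755. The first, with 40.1%, placed C2-Mes at -7.52 and -7.11 and C2-Epi at -2.59 and -2.33, with all groups made from C1 and C1 itself at -0.167 to 3.43. Members were not scaled to equal variance, so those with wide ranges weighed most. The largest loadings were those of EGLN3 (0.754) and CA9 (-0.463) on the first component and NDRG1 (-0.548) on the second. EGLN3 had 6 counts in each C2-Mes library. Of the members described only by their changes, the group means spanned least for GPI, with a highest of 393 CPM in C1 and a lowest of 259 CPM in C2-Epi, a ratio of 1.52. TPI1 spanned 1.61-fold, PKM 1.79-fold, ENO1 1.84-fold, PFKP 1.88-fold, GAPDH 1.92-fold and PGAM1 1.96-fold, with PKM, ENO1, GAPDH and PGAM1 highest in C1. Wider ranges were those of PDK1 (2.12-fold), HK1 (2.17-fold), MXI1 (2.38-fold), SLC2A1 (2.702-fold), PFKL (2.72-fold), KDM3A (2.77-fold), ALDOA (3.31-fold) and EGLN1 (3.37-fold). The 13 glycolytic steps summed to 9839 and 9186 CPM in sgKMT2D-Mes, against 11127 and 11729 CPM in sgKMT2D-Epi, and to 17439 and 16619 CPM in C1, which held the highest libraries. Per length, in TPM, GAPDH was the most abundant member with a mean of 4242.0 over the 16 libraries, followed by ENO1 (1370.3), LDHA (1040.8) and PKM (957). The lowest were KDM3A (8.40), PDK1 (6.99) and ANKRD37 (5.55).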

How the data were processed

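RNA of 16 HMLER libraries was measured. The deposited tables hold raw counts per gene for each library. Reads were aligned to GRCh38 with STAR 2.7.1a and counted with featureCounts, per the submitters' processing notes. Which annotation was counted, whether strand was used and how reads with several places were treated is not given in the sources used here. Symbols, positions and exon lengths came from GENCODE 29, which holds 56868 of the 60448 rows, and the remaining 3580 rows took at most 0.0463% of a library's counts. No row names anything other than a gene.

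From the deposited counts, genes were kept with filterByExpr (18285 genes) and scaled by TMM in edgeR 4.0.16 (limma 3.58.1, R 4.3.3). One mean per group was fitted over all 16 libraries (8 residual degrees of freedom), and 7 pairs of groups and 3 differences between lineages were tested by robust quasi-likelihood in edgeR, and p-values were adjusted within each comparison over all genes (Benjamini-Hochberg). With 2 libraries a group the spread is shared across groups. CPM are TMM-scaled, and TPM use the union of exons. CA9 in sgKMT2D cells (16 to 31 counts a library) and EGLN3 in C2-Mes (6 counts in each library) rest on few reads. All 38 members were accounted for. Values of every library are given for members called in all 3 lineages, for members called in any pair with a log2 change of 1.5 or more in size and a higher group of 5 CPM or more, and for HIF1A and EPAS1, with further values added after they were seen for members that a sentence turns on (CA12, BNIP3, LDHA, PGK1, PFKFB3, SLC16A3, PDK4). From each further list up to 4 called genes per lineage with the largest change and at least 5 CPM are named, apart from some genes that are not reported here. The members and lists were chosen with earlier results of these data known. Motifs were searched in the RefSeq promoter table.

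Alternatives were size factors from DESeq2, library totals alone, no filter, the Wald test of DESeq2 1.42.0, a GC content and length correction (a spline with 4 degrees of freedom), only the libraries compared, a replicate block, C1 as the control and each library left out. The pipeline was tested on simulated data. Figures were drawn with matplotlib 3.10.9 in Python 3.11.15.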

Additional observations from a re-analysis of the deposited data

Results flagged for a closer look

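The change between the epithelial and the mesenchymal state differed between lineages for 32 combinations of a member and a pair of lineages, by edgeR's quasi-likelihood test of the difference itself (adjusted p under 0.05). Values are log2 changes of the lineage named first minus the other. No explanation was weighed.

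Between sgKMT2D and C2, EGLN3 differed by 6.10, CA12 by -2.36, SLC16A3 by -1.76, PDK1 by -1.57, HK2 by -1.56, ANGPTL4 by -1.54 and ADM by -1.53. Smaller differences were those of BNIP3 (-1.21), P4HA2 (-1.15), PFKP (-1.09), PGK1 (-1.06), PFKFB3 (-0.92), P4HA1 (-0.87), PFKFB4 (-0.85), LDHA (-0.73) and GAPDH (-0.63). Adjusted p ran up to 0.048, for ADM. Without C2-Mes replicate 1 the differences were -0.43 for ADM, -0.63 for HK2, -0.78 for PDK1 and -0.71 for BNIP3, and without C2-Mes replicate 2 that of ANGPTL4 was -0.94. With 1 library left out in turn, the call ended in 7 of 8 cases for ADM, 6 for HK2 and GAPDH, 5 for LDHA and P4HA1 and 3 for PDK1, ANGPTL4 and PFKFB4. With only the libraries compared, the calls on ADM, ANGPTL4, HK2 and PDK1 ended, and with library totals alone those on ADM, GAPDH and PFKFB4.

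Between sgEED and C2, EGLN3 differed by 5.04, CA9 by -2.81, SLC2A3 by -2.32, CA12 by -2.28 and PFKFB3 by -1.02, with adjusted p of at most 0.0035. Without C2-Mes replicate 1, CA9 differed by -1.80 and SLC2A3 by -1.50, both still called, and with only the libraries compared the PFKFB3 call ended.

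Between sgEED and sgKMT2D, the positive differences were those of PDK1 (1.69), VEGFA (1.18), P4HA2 (1.08), PGK1 (0.94), LDHA (0.90), SLC2A1 (0.89), PFKP (0.80), P4HA1 (0.76) and PFKFB4 (0.69). Negative ones were those of SLC2A3 (-1.81) and EGLN3 (-1.05). The differences of SLC2A1, PFKFB4, P4HA1 and VEGFA each ended with 7 of the 8 libraries left out in turn, that of PDK1 with 4 and that of EGLN3 with 1. A positive difference can be a larger rise, a rise in place of a fall, as for PDK1, or a smaller fall. The last holds for VEGFA and PFKFB4, which changed less in sgEED.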

How the results depend on the processing

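Of 4712 recomputed values of single members, 4152 kept their side of the threshold, 319 lost the call, 216 gained one and 25 changed sign with a call in at least 1 of the fits. The 4152 include changes of sign with no call in either fit, which are not listed below. Counts of called members moved by over 1.5 times as follows: with only the libraries compared, to 15 in C2-Mes against C2-Epi, 31 in C2-Epi against C1 and 24 in sgControl against C1. With the GC content and length correction they came to 20 in sgEED-Mes against sgEED-Epi, 18 for sgEED against sgKMT2D and 9 for sgEED against C2, and with no filter on low counts to 11 for the last. With C1 as the control they came to 12 in sgEED-Epi and 17 in sgKMT2D-Epi. Counts over all genes came to 3361, 9967 and 2130 with only the libraries compared (C2-Mes against C2-Epi, C2-Epi against C1, and sgEED against C2) and to 4601 in sgEED-Epi with C1 as the control.

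With each library left out, called members ranged over 19 to 28 in C2, 11 to 14 in sgEED, 16 to 19 in sgKMT2D, 6 to 12 in C2-Epi against C1, 13 to 17 in sgEED-Epi, 19 to 22 in sgKMT2D-Epi, 8 to 11 in sgControl against C1, 5 to 11 for sgEED against sgKMT2D, 5 to 14 for sgEED against C2 and 9 to 23 for sgKMT2D against C2. Called genes ranged over 5402 to 8605 in C2, 5254 to 5744 in sgEED, 7182 to 7644 in sgKMT2D, 2629 to 3466 in C2-Epi against C1, 6354 to 7804 in sgEED-Epi, 7862 to 9108 in sgKMT2D-Epi, 2226 to 3538 in sgControl against C1, 2293 to 4118 for sgEED against sgKMT2D, 2744 to 5536 for sgEED against C2 and 3095 to 6749 for sgKMT2D against C2.

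Signs turned with C1 as the control in sgEED-Epi for GPI (-0.41), PGK1 (-0.19), PGAM1 (-0.42), LDHA (-0.00104), CA9 (-1.10), CA12 (-0.41) and KDM3A (-0.13), and in sgKMT2D-Epi for EGLN3 (-0.81), PGK1 (-0.044), PGAM1 (-0.47), LDHA (-0.048) and ADM (0.081). With the GC content and length correction they turned for ALDOC in C2-Epi (0.41), for GAPDH (0.41), SLC16A3 (0.35), BNIP3L (-0.31) and KDM3A (-0.091) in sgEED-Epi, and for GPI (0.29), PFKP (0.41), GAPDH (0.35), PFKFB3 (0.43), SLC16A3 (0.45) and P4HA1 (-0.56) in sgKMT2D-Epi. MXI1 in C2 turned to -0.56 without C2-Mes replicate 1 and ranged up to 0.45, and NDRG1 for sgKMT2D against C2 turned to -0.47 without C2-Mes replicate 2 and ranged up to 1.22. The cause was not tested.

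Replicate numbers showed no pairing common to all groups: deviations of same-numbered libraries correlated at -0.371 to 0.344 over 28 pairs of groups, with 4 over 0.1. With 2 libraries a group, this cannot decide whether only some groups were paired. With a replicate block, 24 members were called in C2, 14 in sgEED and 23 in sgKMT2D, and of 380 member results 4 lost their call and 4 gained one. Library totals in place of TMM shifted the median log2 change of all genes by -0.193 in C2 and -0.213 in sgEED, and the share of higher among called genes was then 37.9% (53.1% with TMM), 35.9% (52.5%) and, in sgControl against C1, 38.5% (49.1%). Low counts limit CA9 in sgKMT2D cells and EGLN3 in C2-Mes, at about 1 CPM or less.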
